A study of Mus spretus with 8 samples.

Results

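The genes described here build peroxisomes or work in them, and 39 of the 22471 genes with a named probe on the array belong to this set. They were taken from a list of gene symbols matched to the probe annotation, and all 39 were found, with 66 probes in all. A gene's value is that of its brightest probe on average over the 8 arrays, except Hao2, for which all 10 probes are given. Of the 39 genes, 13 serve peroxisome biogenesis, and 26 are enzymes or membrane carriers.

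Liver RNA came from 8 male mice of inbred SPRET/EiJ, a wild-derived strain of Mus spretus, and each mouse had its own 1-colour Agilent array. The DDE group held 4 mice, 7 weeks old at the start, whose Harlan feed held p,p'-DDE at 450 mg/kg, given in corn oil, for 30 days. The control group held 4 mice that ate this feed with corn oil alone for 30 days, with no age given of their own. p,p'-DDE is the long-lived breakdown product of the insecticide DDT. The labels name no genetic modification in either group, and the comparison asks which liver transcripts differ after the exposure. Nothing in the labels describes pooling of animals, and p-values set the difference between the groups against the spread between samples within them.

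Peroxisomes are organelles that shorten very long and branched fatty acids and bile acid precursors, oxidize 2-hydroxy acids, amino acids and urate, and start the synthesis of ether lipids. Their proteins are made in the cytosol and brought in by peroxins, the products of the Pex genes. In the liver of laboratory mice and rats, ligands of the receptor PPARalpha raise Ehhadh, Acaa1b, Pex11a and other peroxisomal genes and multiply the organelles, which is the origin of the term peroxisome proliferation.

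Values are log2 signals as the authors normalized them, and a difference is the DDE mean minus the control mean. Probes bind with different strength, so levels are not compared between genes. The background level of an array, taken from probes for olfactory and vomeronasal receptors, lay between 7.55 (DDE 2) and 7.81 (DDE 4). Bright or dark stained patches covered from 0.521% (DDE 1) to 9.50% (control 4) of the spots, and DDE 4 had 7.59%. At 14 of the 39 brightest probes at least 1 of the 8 spots lay in such a patch, and these spots are named where they matter. The hepatocyte markers Alb, Ttr, Cps1, Tat, Hnf4a and Fgb were above background on all 8 arrays, and 0 of the 6 passed the test. Of 4 stellate cell markers, 1 passed, Reln, with 7.58 to 7.64 in DDE livers and 7.09 to 7.32 in controls, close to background in both groups. In the same list Col1a1 had a difference of 0.62 (adjusted p = 0.152) and Lrat of 0.34 (adjusted p = 0.144). For Reln, Col1a1 and Lrat all DDE values lay above all control values, by 0.26, 0.01 and 0.07 at the closest. The summed level of the 4 stellate markers, as log2 of the summed signals, was 10.38 to 13.77 in DDE livers and 9.94 to 10.54 in controls. The highest single value of this list was 13.65, in a DDE liver, while Lrat did not exceed 8.46 and Col1a1 9.57. The top of the DDE range of the sum therefore rests on the remaining marker, Des. Of the 4 markers, 3 were above background on all 8 arrays. Of the Kupffer, endothelial, bile duct and lymphocyte markers 0 passed. The summed level of the 4 bile duct markers was 9.455 to 9.653 in DDE livers and 9.624 to 13.763 in controls, with a highest single value of 13.68. The Kupffer marker Cd5l was lower in all DDE livers than in any control (difference -0.81, adjusted p = 0.183), and the summed level of the 5 Kupffer markers was 11.87 to 12.93 in DDE livers and 12.28 to 13.17 in controls. The kidney tubule genes Kap and Umod were above background on 0 of 8 arrays, and the other 2 of that list did not exceed 8.21 on any array. Of these Lrp2 had a difference of -0.52 near background, with groups apart (adjusted p = 0.0976). The part of these markers in the results below was not tested.

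Hao2 had the largest difference, and all 10 of its probes were higher in DDE livers. Of the 10 probes 8 passed the adjusted test, while the brightest, which stands for the gene in the counts, did not pass. Across the 39 genes at their brightest probes, 2 rose and 0 fell in DDE livers, the 2 being Pex7 and Abcd3 (limma, Benjamini-Hochberg adjusted p under 0.05 over all 42957 probes). The 2 genes are 5.13% of the set. Of all genes at their brightest probe 2.58% rose and 0.774% fell, and of the 10958 genes above background on 4 or more arrays 5.20% rose and 1.54% fell. The share among peroxisomal genes was near that of genes above background in general. Above background on all 8 arrays were 34 of the 39 genes, and Hao2 on the 4 DDE arrays, while Abcd2, Far1, Dao and Pex10 were at background on nearly all arrays. An unadjusted p under 0.05 was reached by 10 genes that were higher and 5 that were lower, 38.5% of the set. The shares were 11.4% higher and 4.57% lower over all genes, and 20.8% and 8.11% over genes above background. The values of the groups did not overlap for 6 higher and 3 lower genes, 23.1% of the set. Over all genes these shares were 8.48% and 4.06%, and over genes above background 14.6% and 5.98%. As the RNA is of whole liver, more RNA per cell and more cells of a type cannot be told apart.

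**Figure D1:**
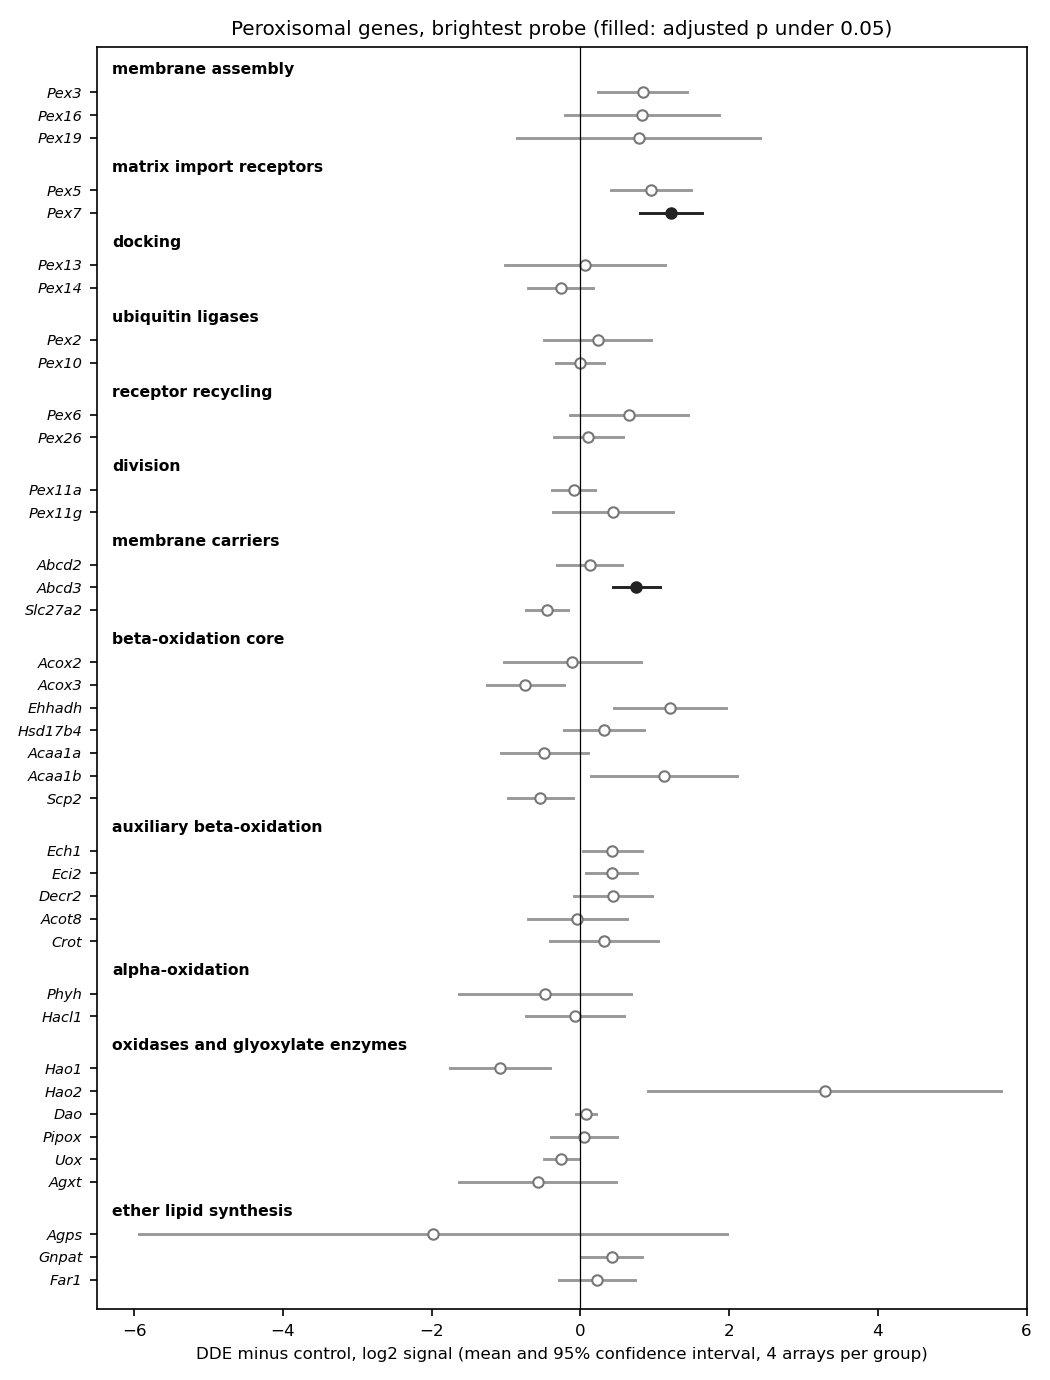
Difference in log2 signal, DDE minus control, for the brightest probe of each of the 39 genes (horizontal axis), grouped by role, with 95% confidence intervals from limma over 4 arrays per group. Filled points mark Pex7 and Abcd3, the 2 genes past the adjusted threshold, and the interval of Agps is the widest, from -5.94 to 1.97.

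Pex7 rose in DDE livers and is the receptor that brings matrix enzymes with the type 2 targeting signal (PTS2), among them the thiolases, Phyh and Agps, into the peroxisome. It had 11.36, 11.51, 11.73 and 10.87 in DDE livers and 10.22, 10.19, 10.14 and 10.05 in controls. All 4 DDE values lay above all 4 control values, by 0.65 at the closest, and the controls spread little (SD 0.074, against 0.36 in DDE livers, n = 4 each). The difference was 1.22 with a 95% interval from 0.80 to 1.63, or 2.33-fold (limma adjusted p = 0.0198). It was past the threshold in 12 of 17 alternative analyses, with adjusted p from 0.00646 to 0.0798 and a difference from 1.10 to 1.38. Of the fits without 1 array, it did not pass without control 2 (adjusted p = 0.063), control 3 (0.0573), DDE 1 (0.0587) or DDE 2 (0.0689).

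Pex5, the receptor for the C-terminal targeting signal that most peroxisomal enzymes carry, had 11.59, 11.52, 11.66 and 12.37 in DDE livers and 10.91, 10.95, 11.07 and 10.42 in controls. These groups did not overlap either, with DDE 4 the highest and control 4 the lowest value. The difference of 0.95 (95% interval 0.41 to 1.48) did not pass the adjusted test (limma adjusted p = 0.0816). Without control 4 and DDE 4, the arrays with the most stained spots, it was 0.61 and passed (adjusted p = 0.0251, against up to 0.249 over its 17 alternatives), a choice made after the data were seen. Neither of these spots of Pex5 lay in a stained patch.

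The 3 genes of membrane protein assembly had similar differences of 0.78 to 0.84, and 0 of 3 passed. Pex3, the membrane anchor that receives newly made membrane proteins, had 11.08, 10.65, 11.66 and 10.95 in DDE livers and 10.40, 10.43, 10.43 and 9.72 in controls. Its groups did not overlap (difference 0.84, adjusted p = 0.153). Pex19, the cytosolic carrier that hands those proteins to Pex3, had 10.56, 10.80, 10.69 and 9.91 in DDE livers and 11.90, 9.15, 8.82 and 8.96 in controls. The 1 high control value of Pex19 came from a stained spot on control 1. With all 4 controls the difference of Pex19 was 0.78 (adjusted p = 0.633), and without stained spots it was 1.51 (adjusted p = 0.021, against up to 0.776 over its 17 alternatives), and without control 1 it also passed (adjusted p = 0.0384). Pex16, which helps to recruit Pex3, averaged 11.81 ± 0.84 in DDE livers and 10.98 ± 0.47 in controls (SD, n = 4 each, adjusted p = 0.47). Its highest value, 12.63 on DDE 4, was from a stained spot, and without stained spots the difference was 0.56.

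Among the 6 genes of docking, receptor ubiquitination and receptor recycling 0 passed, with differences from -0.27 to 0.66. Pex13 and Pex14 form the docking site at the membrane. Pex14 had 9.99, 9.97, 9.70 and 9.33 in DDE livers and 10, 10.06, 10.30 and 9.70 in controls, overlapping groups with a difference of -0.27 (adjusted p = 0.597). Pex13 differed by 0.07, with values from 10.07 to 11.93, the highest on a stained spot of control 2. Pex2 and Pex10 are subunits of the ubiquitin ligase that releases the import receptors. Pex2 had 11.12, 10.36, 10.34 and 10.26 in DDE livers and 10.87, 10.27, 10.42 and 9.59 in controls (difference 0.23, adjusted p = 0.715). Pex10 was above background on 0 DDE arrays and 1 control array, so it has no level here.

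Pex6, part of the ATPase that pulls used receptors out of the membrane, had 10.45, 9.59, 10.61 and 10.06 in DDE livers and 10.29, 9.36, 9.53 and 8.91 in controls. The groups overlapped, and the difference of 0.66 did not pass (adjusted p = 0.453). At its dimmer probe the difference was 0.78 (adjusted p = 0.51), where DDE 4 had 10.09 on a stained spot and the other DDE arrays 8.04 to 8.25. Pex26, which anchors that ATPase to the membrane, averaged 11.26 ± 0.15 in DDE livers and 11.15 ± 0.39 in controls (SD, n = 4 each). The highest value of Pex26, 11.71 on control 3, was from a stained spot. Its second probe was above background on 0 of 8 arrays.

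Pex11a and Pex11g belong to the family that elongates and divides peroxisomes, and Pex11a is the member that PPARalpha ligands induce in laboratory mice. Pex11a had 10.20, 10.12, 9.99 and 10.09 in DDE livers and 10.08, 10.46, 10.31 and 9.92 in controls at its brightest probe. The groups overlapped, and the difference was -0.09 with a 95% interval from -0.39 to 0.20 (adjusted p = 0.722). The DDE 4 spot lay in a stained patch, and its 10.09 was the highest of the 10 probes on that array. Without stained spots the difference at this probe was -0.09 (limma adjusted p = 0.805). Of its 10 probes 0 passed, 0 had groups apart, and their differences ran from -0.595 to 0.045 with a median of -0.27 (adjusted p from 0.378 to 0.966). Several probes of a gene may be repeated spots of 1 sequence, so they are not independent measurements. The SD between the 10 probes within an array was 0.21 to 0.58, and 0.58 was on DDE 4, where their median was 9.11, against 9.86 to 10.14 on the other DDE arrays and 9.74 to 10.38 on the controls. Pex11g had 12.87, 12.43, 11.64 and 12.58 in DDE livers and 12.19, 12.56, 11.64 and 11.38 in controls, with overlap (difference 0.44, adjusted p = 0.633). The DDE 1 value was from a stained spot, and without stained spots the difference was 0.27.

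Abcd3 (also known as PMP70), the abundant transporter that takes long and branched acyl-CoA and bile acid precursors into the peroxisome, was the other gene that rose. It had 14.45, 14.33, 14.57 and 14.19 in DDE livers and 13.52, 13.96, 13.53 and 13.52 in controls. All DDE values lay above all control values, by 0.23 at the closest, with control 2 the highest control. The difference was 0.75 (95% interval 0.44 to 1.06), or 1.68-fold (limma adjusted p = 0.0346). Over 17 alternatives the difference ran from 0.69 to 0.86, and the adjusted p ran from 0.0194 to 0.121 and was past the threshold in 8. The call was kept in 2 of 8 fits that left out 1 array. It was lost without control 1 (adjusted p = 0.0765), control 3 (0.094), control 4 (0.0658), DDE 1 (0.0962), DDE 2 (0.0966) or DDE 3 (0.0853). It was also lost with an intensity trend and robust variance (0.0701) and without control 4 and DDE 4 together (0.0579).

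Abcd2, a related transporter of very long acyl-CoA, was above background on 1 DDE array (DDE 4, 7.94) and 0 control arrays, so no level is given. Slc27a2, which activates very long and branched fatty acids to their CoA esters at the peroxisome and the endoplasmic reticulum, had 15.62, 15.60, 15.46 and 15.12 in DDE livers and 15.85, 15.94, 16 and 15.81 in controls. All DDE values were below all control values, and the mean signal was 1.37-fold lower. As 2 controls were within 0.1 of the top of the scale at 16, the measured fold may be too small for that reason alone. The spots of controls 3 and 4 lay in stained patches, and without stained spots the difference was -0.445 (limma adjusted p = 0.246). The difference of -0.45 did not pass (adjusted p = 0.116).

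The core enzymes of peroxisomal beta-oxidation had differences of both signs, and 0 of 7 passed. Ehhadh, the bifunctional hydratase and dehydrogenase for straight chains and a standard PPARalpha target, had 12.62, 12.78, 12.37 and 13.40 in DDE livers and 11.27, 12.39, 11.30 and 11.40 in controls. Only control 2, a stained spot, reached the DDE values. The difference was 1.20 (95% interval 0.45 to 1.95, adjusted p = 0.109), and without stained spots it was 1.47 and passed (adjusted p = 0.0253, against up to 0.245 over its 17 alternatives). Acaa1b, the thiolase that PPARalpha ligands induce, had 14.87, 13.85, 13.74 and 14.24 in DDE livers and 13.96, 13.20, 12.91 and 12.14 in controls. Only control 1 reached the DDE values of Acaa1b, and the difference was 1.12 (95% interval 0.14 to 2.10, adjusted p = 0.254).

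The closely related thiolase gene Acaa1a had 15.26, 15.43, 15.57 and 14.54 in DDE livers and 15.30, 15.67, 15.84 and 15.93 in controls, a difference of -0.485 (adjusted p = 0.45). Its difference was opposite in sign to that of Acaa1b, and the test of the difference between the genes was not run. Acaa1a and Acaa1b share much of their sequence, so each probe may bind the transcript of the other. The highest control value of Acaa1a was within 0.1 of the top of the scale.

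Acox3, an oxidase of branched acyl-CoA, had 10.34, 10.43, 9.84 and 9.93 in DDE livers and 11.24, 10.80, 11.06 and 10.40 in controls. Control 4 alone fell among the DDE values, and the difference was -0.74 (95% interval -1.25 to -0.23, adjusted p = 0.143), against -0.17 at its other probe (adjusted p = 0.695). Scp2, whose SCPx form is the thiolase for branched chains and bile acid precursors, had 15.41, 15.50, 15.48 and 14.73 in DDE livers and 15.76, 15.88, 15.96 and 15.67 in controls. Those groups did not overlap, and the mean signal was 1.45-fold lower (95% interval of the difference -0.97 to -0.11, adjusted p = 0.21). With 1 control within 0.1 of the top of the scale, the measured fold may be too small for that reason alone. The other probe of Scp2 had a difference of -0.08 and overlapping groups. Acox2, the oxidase of bile acid precursors, differed by -0.11 (15.26 ± 0.68 in DDE livers and 15.37 ± 0.51 in controls, adjusted p = 0.904). Hsd17b4, the bifunctional enzyme for branched chains, differed by 0.31 (14.52 ± 0.27 in DDE livers and 14.21 ± 0.41 in controls, SD, n = 4 each, adjusted p = 0.614).

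**Figure D2:**
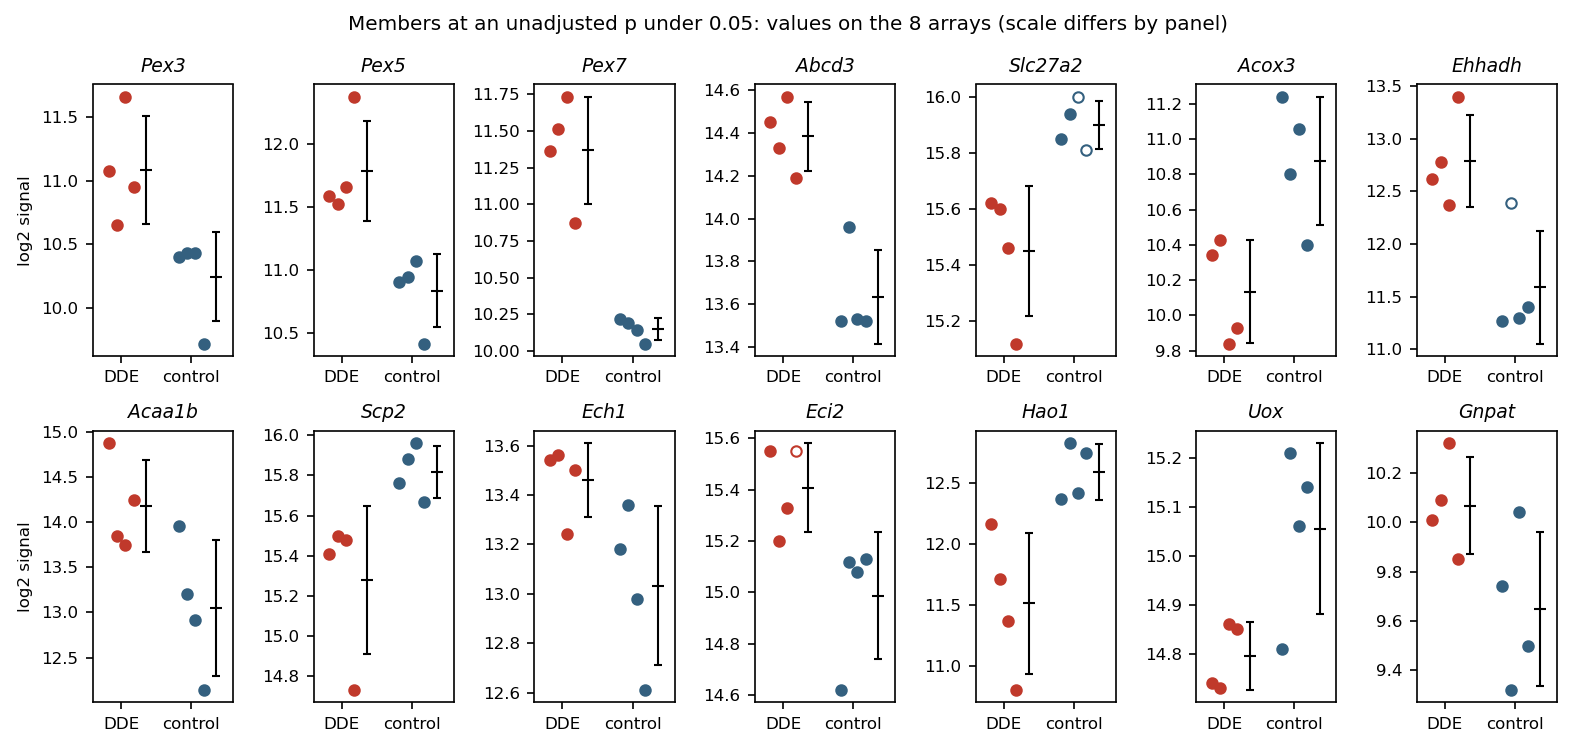
Log2 signal on each array for the 14 genes other than Hao2 at an unadjusted p under 0.05, with DDE livers left and controls right in each panel and the mean ± SD beside the points (4 arrays per group). Open points are spots in stained patches, as on control 2 for Ehhadh, and Pex7 and Abcd3 are the panels whose difference passed the adjusted threshold.

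Of the 5 auxiliary beta-oxidation enzymes 0 passed, and 4 had a positive difference of 0.32 to 0.44. Eci2, an isomerase for double bonds of unsaturated acyl-CoA, had 15.55, 15.20, 15.33 and 15.55 in DDE livers and 14.62, 15.12, 15.08 and 15.13 in controls. The groups of Eci2 were apart by 0.07 (difference 0.42, adjusted p = 0.214), and the DDE 4 spot lay in a stained patch. Ech1, a dienoyl-CoA isomerase of peroxisomes and mitochondria, had 13.54, 13.56, 13.24 and 13.50 in DDE livers and 13.18, 13.36, 12.98 and 12.61 in controls (difference 0.43, adjusted p = 0.288). Control 2 overlapped the DDE values of Ech1. Decr2, the dienoyl-CoA reductase, differed by 0.44 (adjusted p = 0.445), and Crot, which makes carnitine esters of the shortened chains, by 0.32 (adjusted p = 0.634). Acot8, a thioesterase that ends the process by releasing free acids, differed by -0.04 at its brightest probe and by 0.50 at the other (adjusted p = 0.953 and 0.388).

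In alpha-oxidation, which removes 1 carbon from phytanic acid, 0 of 2 genes passed. Phyh, the phytanoyl-CoA hydroxylase, had 13.35, 11.97, 11.83 and 13.22 in DDE livers and 13.65, 13.67, 12.78 and 12.20 in controls. Each group held both high and low values of Phyh, the DDE 4 spot was stained, and the difference was -0.48 with a 95% interval from -1.64 to 0.67 (adjusted p = 0.643). Hacl1, the lyase of the next step, averaged 10.34 ± 0.40 in DDE livers and 10.41 ± 0.45 in controls (SD, n = 4 each, adjusted p = 0.91).

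Hao2 encodes a peroxisomal oxidase of long-chain 2-hydroxy acids. All 10 probes were above background on all 4 DDE arrays, 40 of 40 values, against 1 of 40 control values. The median of the 10 probes was 8.63, 9.73, 10.28 and 9.50 in DDE livers and 7.24, 7.41, 7.21 and 7.37 in controls. DDE 1 was the lowest and DDE 3 the highest of the DDE livers, and the control medians were all below the background level of their arrays. At every probe the DDE values lay above the control values, and 8 of 10 probes passed the adjusted test (limma adjusted p from 0.0119 to 0.16 over the 10). With control values raised to background, the signal was at least 3.15-fold to 4.30-fold higher in DDE livers at 9 of the probes, and no bound is given for the brightest, whose DDE mean holds a stained spot. The probe at 4.30-fold also had stained spots, on DDE 2 and DDE 3.

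The 2 probes of Hao2 that missed the threshold each had 1 value apart from the rest. The brightest probe had 8.74, 9.72, 9.99 and 13.79 in DDE livers and 7.23, 7.32, 7.21 and 7.35 in controls, and 13.79 was from a stained spot on DDE 4 (difference 3.28, adjusted p = 0.16). Without stained spots the difference of that probe was 2.21 (adjusted p = 0.0145). The second probe had 8.94, 10.03, 10.91 and 9.63 in DDE livers and 7.29, 8.85, 7.45 and 7.45 in controls, and 8.85 on control 2 was the only control value above background (difference 2.12, adjusted p = 0.0798).

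The 8 probes of Hao2 that passed lay, on DDE 1, between 8.49 and 8.73 and, on DDE 2, between 9.67 and 10.09. On DDE 3 they ran from 9.70 to 10.87 and on DDE 4 from 8.94 to 9.84, a wider spread than on the other DDE arrays. On the controls they stayed between 7.17 and 7.61. The mean of all 10 probes differed by 2.28 (adjusted p = 0.0201). Leaving out 1 array kept between 3 and 8 of the 10 probes past the threshold. It was 3 without control 1, control 2, control 3 or DDE 2, 4 without control 4, and 5 without DDE 3. With an intensity trend and robust variance 5 probes passed, with array weights 5, and without control 4 and DDE 4 together 4.

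**Figure D3:**
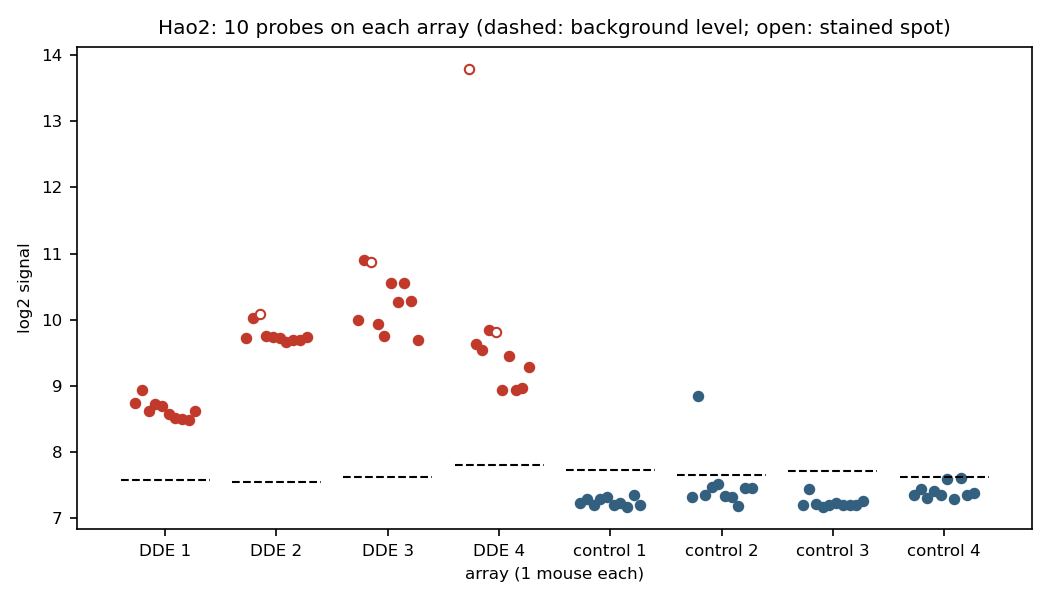
Log2 signal of each of the 10 Hao2 probes (points) on the 4 DDE and 4 control arrays, with dashed lines at the background level of each array and open points for spots in stained patches. All 40 DDE points lie above background, with the point at 13.79 on DDE 4 far above the rest, and 1 of 40 control points does, on control 2.

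Hao1, the glycolate oxidase that supplies glyoxylate, had 12.17, 11.71, 11.37 and 10.80 in DDE livers and 12.37, 12.83, 12.42 and 12.75 in controls. All DDE values were below all control values, by 0.20 at the closest, opposite in direction to its relative Hao2. The difference of -1.08 (95% interval -1.75 to -0.41) did not pass (limma adjusted p = 0.11, from 0.0733 to 0.24 over 17 alternatives). Agxt, the aminotransferase that turns glyoxylate into glycine, had 14.22 ± 0.65 in DDE livers and 14.79 ± 0.73 in controls (SD, n = 4 each, adjusted p = 0.632). Uox, the urate oxidase, had 14.74, 14.73, 14.86 and 14.85 in DDE livers and 14.81, 15.21, 15.06 and 15.14 in controls. Control 1 alone overlapped the DDE values of Uox, and the difference was -0.26 (adjusted p = 0.261), or -0.15 at the other probe (adjusted p = 0.633). Pipox, which oxidizes pipecolic acid and sarcosine, differed by 0.045 with a 95% interval from -0.40 to 0.49 (adjusted p = 0.918). Dao, the D-amino acid oxidase, was above background on 0 of 8 arrays at both probes.

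In ether lipid synthesis, 0 of 3 genes passed. Gnpat, which adds the first acyl chain, had 10.01, 10.09, 10.32 and 9.85 in DDE livers and 9.74, 9.32, 10.04 and 9.50 in controls. Control 3 alone overlapped the DDE values, and the difference was 0.42 (95% interval 0.01 to 0.83, adjusted p = 0.321). Agps, which exchanges that chain for an alcohol, had 8.38, 8.41, 8.54 and 8.04 in DDE livers and 8.31, 8.26, 15.84 and 8.90 in controls. The spots of controls 3 and 4 were stained, and with the value of 15.84 on control 3 the difference was -1.985 (adjusted p = 0.633). Without control 3 the difference of Agps was -0.15, and without both stained spots it was 0.06 (adjusted p = 0.889). Far1, which makes the alcohol, was above background on 1 DDE array (DDE 1, 8.16) and 0 control arrays.

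The median difference of the biogenesis genes was above that of the enzymes and carriers, and each class had 1 call. In biogenesis, 1 of 13 genes rose (Pex7) and 0 fell, 3 were higher and 0 lower by the unadjusted p, and 10 of 13 had a positive difference. The call count of biogenesis genes was 0 without control 2, control 3, DDE 1 or DDE 2, and 2 without control 1. Among the 26 enzymes and carriers 1 rose (Abcd3) and 0 fell, 7 were higher and 5 lower by the unadjusted p, and 14 of 26 had a positive difference. Of the 10958 genes above background on 4 or more arrays, 6393 had a positive and 4546 a negative difference. By the unadjusted p, 20.8% of these genes were higher and 8.11% lower, and 5.20% rose and 1.54% fell by the adjusted test. The median difference was 0.44 for biogenesis genes and 0.06 for enzymes and carriers, beside 0.015 for all genes and 0.10 for genes above background on 4 or more arrays. Without the dimmer probes the median of enzymes and carriers was -0.04, over 23 genes. The biogenesis differences ran from -0.27 (Pex14) to 1.22 (Pex7), and those of enzymes and carriers from -1.985 (Agps) to 3.28 (Hao2).

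The biogenesis median rested in part on 2 arrays. The median deviation of the 13 genes from the control mean was 0.83 on DDE 1, 0.26 on DDE 2, 0.11 on DDE 3 and 0.20 on DDE 4, against 0.155, 0.045, 0.01 and -0.51 on controls 1 to 4. DDE 1 was far above and control 4 far below the other 6 arrays, and control 1 lay above DDE 3. Without control 4 the median difference was 0.25, without DDE 1 it was 0.27, and without control 4 and DDE 4 it was 0.18. All genes above background also had their lowest median on control 4 (-0.28) and their highest on DDE 1 (0.19). For enzymes and carriers the medians were 0.19, 0.06, 0.04 and 0.025 on DDE 1 to 4 and -0.04, 0.14, -0.04 and -0.17 on controls 1 to 4. The difference between the classes was not tested, since the genes were chosen as a list.

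**Figure D4:**
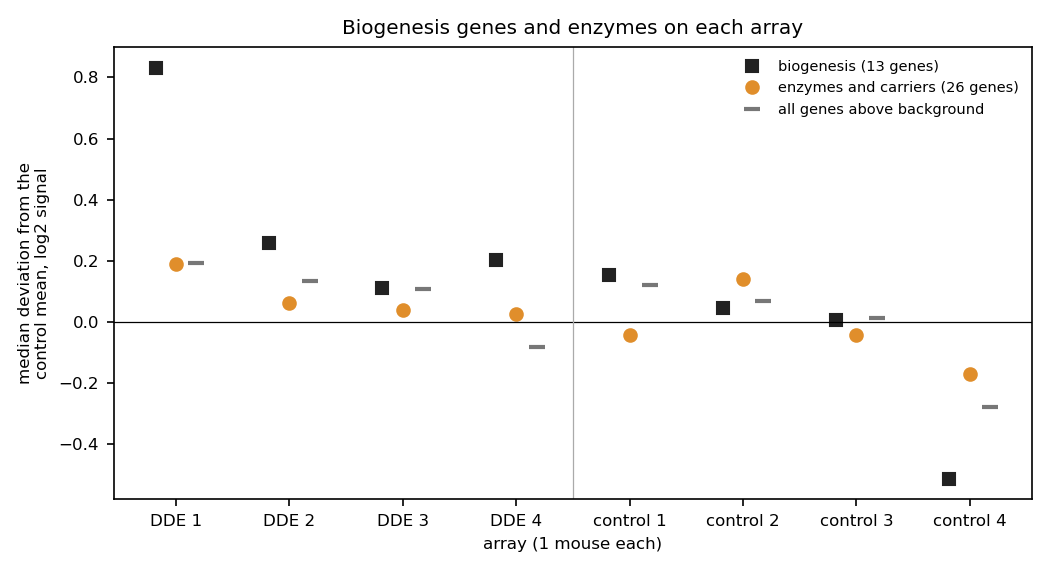
Median deviation from the control mean in log2 signal (vertical axis) of the 13 biogenesis genes, the 26 enzyme and carrier genes and all genes above background, on each of the 4 DDE and 4 control arrays. Biogenesis genes reach 0.83 on DDE 1 and -0.51 on control 4, and enzymes and carriers stay between -0.17 and 0.19.

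Other peroxisomal genes outside this set gave 1 rise and 2 falls among 37 measured, with a median difference of 0.085. By the unadjusted p, 7 were higher and 5 lower. Of genes above background on 4 or more arrays 5.20% rose and 1.54% fell, and 20.8% were higher and 8.11% lower by the unadjusted p. Cat, the gene of catalase, which breaks down the hydrogen peroxide made by the oxidases above, had 13.81, 14.01, 12.97 and 14.03 in DDE livers and 12.17, 12.43, 12.33 and 11.90 in controls (2.82-fold higher, limma adjusted p = 0.0315). Nudt7, a coenzyme A hydrolase of peroxisomes, had 12.92, 11.63, 11.42 and 10.66 in DDE livers and 14.43, 14.63, 15.11 and 13.45 in controls (6.72-fold lower, adjusted p = 0.0449). Mlycd, the malonyl-CoA decarboxylase of mitochondria and peroxisomes, had 7.70, 7.48, 7.54 and 7.38 in DDE livers and 8.60, 8.40, 8.40 and 7.96 in controls, at least 1.59-fold lower (adjusted p = 0.0354). For each of these 3 genes the groups did not overlap, and 1 spot lay in a stained patch, on control 3 for Cat, control 1 for Nudt7 and DDE 1 for Mlycd. The calls of all 3 were lost without control 1, control 2, control 3 or DDE 2, where 0 of the 37 passed, and 1 of the 37 passed without DDE 1, DDE 3 or DDE 4.

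Of 23 measured regulators and target genes of PPARalpha, 2 rose and 0 fell, and 7 were higher and 2 lower by the unadjusted p. Their median difference was 0.25, beside 0.10 for genes above background on 4 or more arrays. Of those genes 5.20% rose and 1.54% fell, and 20.8% were higher and 8.11% lower by the unadjusted p. Vnn1, a pantetheinase, had 10.47, 10.98, 10.84 and 10.77 in DDE livers and 8.25, 9.10, 8.81 and 8.19 in controls (limma adjusted p = 0.00888). Cpt1a, which loads fatty acids for transport into mitochondria, had 12.23, 12.02, 11.95 and 12.23 in DDE livers and 11.39, 11.20, 11.06 and 10.69 in controls (adjusted p = 0.0234). Both were higher in all 4 DDE livers than in any control, and the DDE 4 spot of Vnn1 was stained. In this list the groups were apart for 4 higher and 2 lower genes of 23, beside 14.6% and 5.98% of genes above background on 4 or more arrays. The following genes were chosen after their values were seen. Ppargc1a, a coactivator of PPARalpha, differed by -1.065 (adjusted p = 0.134, with a stained spot on control 4). Pdk4, which restrains pyruvate oxidation, differed by -0.59 (adjusted p = 0.167). Both had all DDE values below all control values. Acot2 (difference 0.80, adjusted p = 0.0557) and Acadl (0.90, adjusted p = 0.0656, with a stained spot on control 2) had all DDE values above all control values. With overlapping groups, Cyp4a31 differed by 1.23 (adjusted p = 0.22) and Angptl4 by 0.885 (adjusted p = 0.257). Ppara itself differed by 0.53 (adjusted p = 0.485), and among its targets Cyp4a10 differed by 1.28 with overlapping groups (adjusted p = 0.148) and Cyp4a14 by 0.25 near background (adjusted p = 0.471). Without control 4 and DDE 4, or without stained spots, 6 of the 23 passed. It was 5 without control 4, and 1 without control 2, control 3, DDE 1, DDE 2 or DDE 3.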

How the data were processed

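The deposited values are on a log2 scale and were normalized by the authors with a method that is not given in the sources used here; per the labels' protocols, Cy3-labelled cRNA from total liver RNA was hybridised with 1 array per mouse. The 8 columns had medians of 7.46 to 7.47 and the same lowest and highest values, 4.43 and 16. Of 42957 probes, 33009 had 1 gene symbol in the platform annotation, 9948 had none and 0 had several.

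DDE was compared with control livers (n = 4 each) over all probes with limma 3.58.1 in R 4.3.3 (lmFit and eBayes), with Benjamini-Hochberg adjustment over all 42957 probes and a threshold of 0.05. The fit was tested on simulated data. An array's background is the 0.95 quantile of 1634 receptor probes. Spots were called stained when their neighbourhood, 7 rows by 5 columns, had a median deviation beyond 0.3, in a layout of 532 rows and 85 columns inferred from the feature numbers. Folds against values at background, or within 0.1 of the top of the scale, are lower bounds in respect of those limits only. They take no account of the spread between mice.

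All 39 genes are named, with the value on every array for those at an unadjusted p under 0.05, for Hao2, and for the gene with the smallest p of a role group with none. The members and lists were chosen with earlier results of these data known. Same-numbered mice of the groups deviated together little (r from -0.011 to 0.0752, against -0.0673 to 0.0412 for the other pairs). The main fit used no pairing, a choice that these correlations do not settle. The stained share of spots rose with the replicate number in both groups. It was 1.16%, 4.25%, 5.45% and 9.50% on controls 1 to 4, and 0.521%, 3.03%, 4.43% and 7.59% on DDE 1 to 4. What this shared order reflects was not tested, and results with the number as a block are given below. The number of arrays, signals near background or the top of the scale, and stained spots limit the precision.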

Additional observations from a re-analysis of the deposited data

Results flagged for a closer look

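In 15 of 96 sets of 4 values (1 group at 1 probe), the highest or lowest value stood apart from the other 3 by Dixon's test, which chance gives in about 1 of 20 sets. Of the 15, 3 were from stained spots, those of Pex19 on control 1 (11.90, others 8.82 to 9.15), Ehhadh on control 2 (12.39, others 11.27 to 11.40) and Agps on control 3 (15.84, others 8.26 to 8.90).

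Among other biogenesis genes, Pex5 stood apart on DDE 4 (12.37, others 11.52 to 11.66), Pex2 on DDE 1 (11.12, others 10.26 to 10.36) and Pex3 on control 4 (9.72, others 10.40 to 10.43). Among enzymes and carriers, Scp2 was low on DDE 4 (14.73, others 15.41 to 15.50) and Far1 was high on DDE 1 (8.16, others 7.24 to 7.30). Abcd3 was high on control 2 (13.96, others 13.52 to 13.53), Hacl1 was high on control 2 (11.08, others 10.15 to 10.23), and Eci2 was low on control 1 (14.62, others 15.08 to 15.13).

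For Hao2, 4 of the 10 probes had such a value. DDE 1 was low at 2 of them (8.73, others 9.76 to 9.94, and 8.70, others 9.74 to 9.81). Control 2 was high at 1 (8.85, others 7.29 to 7.45), and control 4 was high at 1 (7.61, others 7.18 to 7.21), below the background of that array.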

How the results depend on the processing

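Leaving out dim probes, a fold minimum of 1.5, quantile normalization and 75th percentile centring left every count within 1.5 times its value. With an intensity trend and robust variance, 1 of the 39 genes rose, 0 enzymes or carriers, 399 probes rose, 112 fell, and 1 other peroxisomal and 1 PPARalpha gene passed. With array weights 1607 probes rose, 533 fell and 4 PPARalpha genes passed. With the mean of all probes of a gene, 2 enzymes or carriers passed. Without stained spots, a choice made after seeing the data, 5 genes rose (Pex7, Pex19, Abcd3, Ehhadh and Hao2), 2 of biogenesis and 3 enzymes or carriers, and 6 PPARalpha genes passed. Without control 4 and DDE 4, also chosen after seeing the data, 2 biogenesis and 6 PPARalpha genes passed and 443 probes fell.

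Leaving out 1 array at a time gave 0 to 3 genes that rose, 0 to 2 of biogenesis, 0 to 2 enzymes or carriers, 0 to 2 other peroxisomal and 1 to 5 PPARalpha genes, 271 to 1362 probes that rose and 61 to 428 that fell. The biogenesis median ran from 0.25 to 0.60 and that of enzymes and carriers from 0.015 to 0.13. In each of these analyses 0 of the 39 genes fell. With all 8 arrays, 5 were lower at an unadjusted p under 0.05.

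With the replicate number as a block, 0 of the 39 genes, 0 other peroxisomal and 0 PPARalpha genes and 0 of 10 Hao2 probes passed, 8 probes rose and 1 fell. The adjusted p was then 0.0798 for Pex7 and 0.121 for Abcd3. The sample titles number the mice without stating a pairing, and the weak correlations between same-numbered mice do not settle it. Over all alternatives, the sign of the difference was kept for 28 genes, changed in at least 1 for 9 and reached 0 for 2 (Pex2 and Far1), and 33 genes passed in 0 of them. Precision is limited by 4 arrays per group, by signals near background for Abcd2, Far1, Dao, Pex10 and the Hao2 controls, and by the top of the scale for Slc27a2, Scp2, Acox2 and Acaa1a.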
